A study of Mus musculus with 10 samples.

Results

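Skin Ebf2- PαS cells were compared with bone marrow mesenchymal stem cells (MSC) across all genes, from 3 libraries of skin Ebf2- cells and 4 of bone marrow cells among the 10 RNA libraries of the series. Members were the raw count columns named for these 2 groups. The study profiled mesenchymal cells of mouse dorsal skin, sorted with or without Ebf2, and set them beside marrow MSC. Both groups lay in the stromal fraction negative for CD45, TER119 and CD31 (markers of white blood cells, red cell precursors and endothelium). Skin Ebf2- cells were further sorted as CD140a+ Sca1+ (PαS, for PDGF receptor alpha and Sca1) from dorsal skin of FVB/N mice aged 8 to 12 weeks. Bone marrow cells were sorted as Sca1+ CD51+ from C57BL/6 mice aged 8 to 10 weeks. Skin Ebf2+ cells, 3 libraries from the same skin and strain, entered the fit to help estimate the spread and are set beside the called genes at the end. No group received a treatment that the labels record. The design text gives 3 mice for skin and 4 for bone marrow, while bone marrow 1 to 3 carry a label naming an earlier study as their origin and bone marrow 4 does not. Tissue, mouse strain, sort markers and, for 3 of the 4 marrow libraries, the study of origin all change together between the groups and cannot be told apart. Nor can fewer cells of a type be told apart from less RNA per cell in sorted bulk samples.

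As background, mesenchymal stem or stromal cells build the connective tissue scaffold of an organ and can give rise to bone, cartilage or fat cells in culture. In bone marrow they line blood vessels and bone surfaces, secrete factors that hold blood stem cells in place, and supply osteoblasts. In skin, cells with the PαS markers belong to the fibroblasts of the dermis and its deep fascia, which lay down collagen and elastic fibres and keep a memory of their place in the body in their homeobox genes.

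The tables held 14995 genes. Total counts ranged from 11637842 to 14149713 over skin Ebf2- libraries and from 18122495 to 39422062 over bone marrow libraries, so a count of 3 in 1 library stood for 0.212 to 0.258 CPM (counts scaled to library depth) in skin and 0.0761 to 0.166 CPM in marrow. Bone marrow 1 and 4 were nearly alike: over 11879 genes their counts differed by a mean chi-square of 3.19 per gene, against 82.7 for the next closest pair of the series, skin Ebf2+ 3 and skin Ebf2- 3, and 107 for the closest skin Ebf2- pair, 1 and 2. Sampling alone gives about 1, and the median over genes for bone marrow 1 and 4 was 0.936. They may come from 1 library or mouse, so that the marrow n may be 3 rather than 4. They were entered as 2 libraries, and the result with their counts summed as 1 is given beside it. Ribosomal RNA (Rn45s) took 0.170% of the counts in skin Ebf2- 3 and 3.04% to 10.5% in the other 6. Summed T cell markers stood at 757 CPM in skin Ebf2- 2, against 1.57 and 4.18 CPM in skin Ebf2- 3 and 1. Xist, expressed from the inactive X chromosome of females, read 2181, 2182 and 48.8 CPM in skin Ebf2- 1 to 3 and 2209.8, 1677, 0.389 and 2001 CPM in bone marrow 1 to 4, and the Y-linked gene Kdm5d read 0, 1.17 and 1.96 CPM in skin and 41.9, 9.29, 23.3 and 38.4 CPM in marrow, so bone marrow 1, 2 and 4 showed both.

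Of 14520 genes tested, 106 (0.73%) passed an adjusted p of 0.05 in edgeR's quasi-likelihood test, of which 57 (0.393%) were higher and 49 (0.337%) lower in skin Ebf2- than in bone marrow. The median log2 fold change of all genes tested was 0.06. Cartilage, bone and limb-position genes filled the lower side. On the higher side stood heat shock and steroid-modifying enzyme genes, the homeobox gene Irx2, the interferon-induced gene Ifi202b, and keratins of the epidermis. Levels are CPM scaled by edgeR's trimmed mean of M values (TMM), differences are log2 fold changes ± standard error, and both directions are read from skin Ebf2-. The groups did not overlap in any of the 7 libraries for 105 of the 106 genes, the exception being Krt71. Over all genes tested, all 3 skin Ebf2- libraries were above all 4 bone marrow libraries for 9.46% and below them for 9.24%.

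With bone marrow 1 and 4 summed, 47 genes (0.326%) passed, 20 higher and 27 lower, and all 47 were among the 106. The fit of the 7 libraries alone called 262 genes (1.87%), 103 of the 106 among them, and 147 (1.07%) with bone marrow 1 and 4 summed, 77 higher and 70 lower, 85 of the 106 among them. Leaving out skin Ebf2+ 3 and skin Ebf2- 3 together left 81 calls, 55 of them among the 106. Leaving out 1 library at a time left 34 genes without skin Ebf2- 2, 38 without skin Ebf2- 1, 55 without skin Ebf2- 3, 43 without bone marrow 1, 46 without bone marrow 4, 57 without bone marrow 2 and 58 without bone marrow 3. Among the 106, 26 genes passed in each of these 7 fits, 16 higher and 10 lower, and each of the 26 also passed with bone marrow 1 and 4 summed. With bone marrow 4 as the only marrow library, 2 genes passed, Chad and Cytl1, both lower in skin Ebf2-, in a fit where the skin libraries alone give the spread and the marrow library is assumed to vary like them. No gene of the 106 changed its sign under any of the 22 alternatives that tested it. The authors' deposited table of the same comparison lists 816 genes at an adjusted p under 0.05, 418 higher and 398 lower in skin Ebf2-, and 102 of the 106 are among them with the same sign. A gene called "outside the naming rule" below was chosen after its values were seen.

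**Figure D1:**
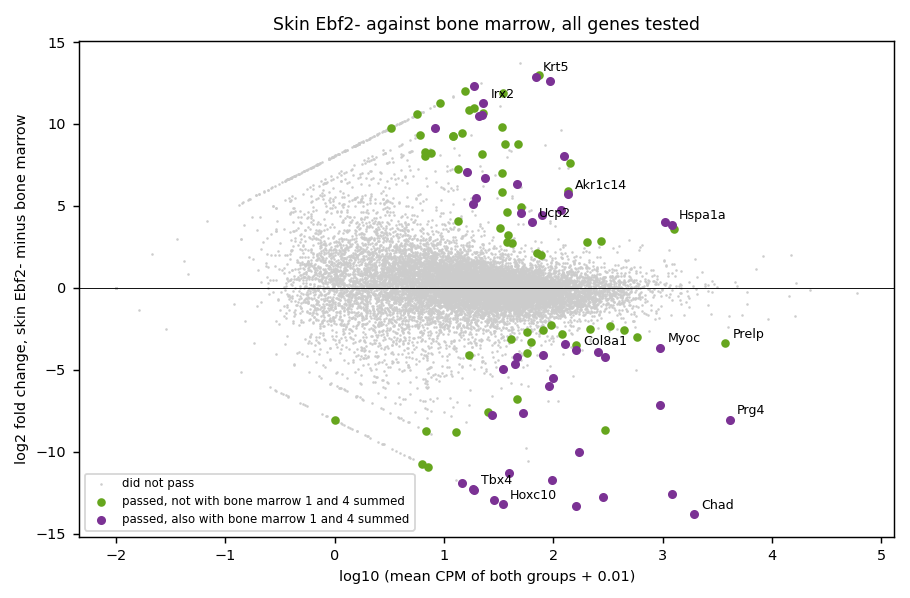
Log2 fold change of skin Ebf2- minus bone marrow (vertical axis) against the log10 of the mean CPM of both groups (horizontal axis) for the 14520 genes tested. Grey points did not pass, green points passed in the fit of all libraries alone, and purple points are the 47 genes that also passed once bone marrow 1 and 4 were summed. The slanted rows of points at the left edges are genes with no or few reads in 1 group, whose fitted fold change depends on the prior count.

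The sort markers did not pass between the groups in edgeR. Pdgfra, which encodes CD140a, read 852, 1117 and 802 CPM in skin Ebf2- 1 to 3 and 1861, 1199.9, 718 and 1768 CPM in bone marrow 1 to 4 (log2 fold change -0.59 ± 0.45, adjusted p = 0.67). Ly6a, which encodes Sca1 and was used in both sorts, read 1308, 1471 and 2117 CPM in skin and 1233, 534, 967 and 1202 CPM in marrow (log2 fold change 0.73 ± 0.43, adjusted p = 0.551). Itgav, which encodes CD51 and was used for marrow alone, read 185, 149 and 103 CPM in skin and 207, 249, 163 and 191 CPM in marrow (log2 fold change -0.47 ± 0.45, adjusted p = 0.747). All 3 were thus well expressed in every library. Ebf2, a transcription factor of the early B cell factor family, read 70.5, 73.5 and 47 CPM in skin Ebf2- and 338, 187, 141 and 330.0 CPM in bone marrow. All 3 skin values lay below all 4 marrow values, and the difference missed the threshold in edgeR (log2 fold change -1.97 ± 0.49, adjusted p = 0.0925). Ebf2 passed in 1 of 22 alternatives, DESeq2 (adjusted p = 0.00316). It also passed in the authors' deposited DESeq2 comparison (adjusted p = 0.00327). Pecam1, which encodes CD31, stayed at or under 6.36 CPM in these 7 libraries. Ptprc, which encodes CD45, stood at 62.0 CPM in skin Ebf2- 2 and under 1 CPM in the other 6.

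Cartilage genes were lower in skin Ebf2-, and Chad had the largest fitted log2 fold change of the 106 genes called. Of 25 tested members of the cartilage list, 7 fell and none rose, against 0.337% of all genes on the lower side. The median log2 fold change of the list was -4.18, and 15 members had all skin Ebf2- libraries below all marrow libraries, against 9.24% of all genes. Chad (chondroadherin, a cartilage matrix protein that binds integrins) read 0.294, 0.346 and 0.157 CPM in skin Ebf2- 1 to 3 and 2314, 1559, 9324 and 2429 CPM in bone marrow 1 to 4 (log2 fold change -13.80 ± 1.21, adjusted p = 0.00063). Skin levels were thus below 1 CPM in every library, and bone marrow 3 was the highest of the marrow libraries. Chad passed in all 22 alternatives. Comp (cartilage oligomeric matrix protein) read 0.0734, 0.484 and 0.626 CPM in skin and 1128, 2081, 5384 and 1160.4 CPM in marrow (log2 fold change -12.57 ± 1.81, adjusted p = 0.00606). The matrix proteins Cilp2 and Clec3a gave the same picture, with bone marrow 3 again on top. Cilp2 read 0.294, 0.0691 and 0.626 CPM in skin and 179.7, 149.7, 875 and 183 CPM in marrow (log2 fold change -10.03 ± 1.18, adjusted p = 0.0037). Clec3a read 0.0734, 0.138 and 0 CPM in skin and 247, 317, 1468 and 233 CPM in marrow, 3 reads in all of skin against 65221 in marrow, a ratio of 9424 with a 95% exact interval of 3225 to 45701. Such ratios and bounds cover counting error only, and they replace the fitted fold change of genes with at most 3 reads in a group.

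Cytl1, a secreted cytokine-like protein of cartilage, read 0, 0.0691 and 0 CPM in skin and 286, 82.4, 636 and 295 CPM in marrow, 1 read against 34670, a ratio of 15029 with a 95% exact interval of 2697 to 593641. Its adjusted p was 0.000645 and it passed in all 22 alternatives. Prg4 (lubricin, which lubricates joint surfaces) was the most abundant of the lower genes at 2673, 9941, 17594 and 2628 CPM in bone marrow 1 to 4, against 6.53, 53.3 and 33 CPM in skin (log2 fold change -8.05 ± 1.37, adjusted p = 0.0184). Fmod (fibromodulin, which binds collagen fibrils) read 13.4, 5.87 and 20.5 CPM in skin and 1284, 1176, 3736 and 1323 CPM in marrow (log2 fold change -7.15 ± 1.18, adjusted p = 0.0143). Skin and marrow did not overlap for any of these 7 genes. The classical cartilage genes Col2a1 and Sox9 were below marrow in all skin libraries without passing. Col2a1 read 0, 0.207 and 0 CPM in skin and 35.7, 26.3, 403 and 8.9 CPM in marrow, with an adjusted p of 0.0869. Sox9, the master transcription factor of chondrocytes, read 3.82, 4.15 and 4.78 CPM in skin and 80.7, 61.2, 220.1 and 84.6 CPM in marrow, with an adjusted p of 0.0698.

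The summed chondrocyte markers stood at 5.18 to 21.3 CPM in skin Ebf2- and at 3587, 3767, 15607 and 3709 CPM in bone marrow 1 to 4, with 7 of 8 markers measured. Chad and Comp, already given above, made up most of this sum in every marrow library. The part of the chondrocyte markers in the result was not tested. Without bone marrow 3 the list median shrank to -2.70, 7 cartilage genes passed as lower, and the log2 fold change of Chad was -12.89. The median was -2.52 with bone marrow 4 as the only marrow library. It was -2.42 with a term for the earlier study of bone marrow 1 to 3, which also sets skin Ebf2- against bone marrow 4 alone. The list kept 7 lower calls with bone marrow 1 and 4 summed and without any single marrow library, and had 5, 4 and 6 without skin Ebf2- 1, 2 and 3. Fits that dropped 1 library lost the calls for Comp without skin Ebf2- 2, for Prg4 without skin Ebf2- 1, 2 or 3 and for Fmod without skin Ebf2- 1 or 2.

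Some tendon and small leucine-rich proteoglycan genes were also lower. Of 12 tested tendon genes, 2 fell, Fmod and Angptl7, against 0.337% of all genes, and the list median was -2.53. Angptl7, a secreted angiopoietin-like protein, read 1.17, 0.484 and 2.74 CPM in skin and 291, 258, 1553 and 287 CPM in marrow (log2 fold change -8.67 ± 1.81, adjusted p = 0.0489), and its log2 fold change was -7.58 without bone marrow 3. Of 14 small leucine-rich proteoglycans, which sit on collagen fibrils and set their spacing, Fmod and Prelp fell, against the same 0.337%. The median was -1.31. Prelp was high in both tissues, at 818, 679 and 477 CPM in skin and 4707, 3529.8, 14364 and 4897 CPM in marrow (log2 fold change -3.39 ± 0.63, adjusted p = 0.0319). Its log2 fold change was -2.72 without bone marrow 3. Neither passed with bone marrow 1 and 4 summed, and the calls were lost for Angptl7 without any one of the 7 libraries and for Prelp without bone marrow 1, 3 or 4 or skin Ebf2- 1, 2 or 3. Other abundant members did not pass. Dcn (decorin) read 10612, 9036 and 16290.5 CPM in skin and 17184, 12904, 19700.2 and 16554 CPM in marrow, with overlapping groups. Lum (lumican) read 2697, 2278 and 4115 CPM in skin and 1622, 1422, 1618 and 1536 CPM in marrow, higher in all skin libraries at an adjusted p of 0.336.

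Bone matrix genes formed a second group of lower genes. Of 24 tested members of the osteoblast list, 5 fell, against 0.337% of all genes, and none rose, with a median log2 fold change of -1.79. Mmp13, a collagenase of bone and growth plate, read 0, 0 and 0.157 CPM in skin and 81.8, 422, 197 and 73.2 CPM in marrow, 2 reads against 18357, a ratio of 3979 with a 95% exact interval of 1101 to 32857. It passed in 21 of 22 alternatives. Ibsp (bone sialoprotein) read 1.39, 0.0691 and 0.0783 CPM in skin and 49.3, 105, 222 and 43.5 CPM in marrow (log2 fold change -7.65 ± 1.30, adjusted p = 0.0274). Phex, an endopeptidase of bone cells that controls phosphate, read 1.32, 0.138 and 1.02 CPM in skin and 126, 96.3, 28.8 and 119.5 CPM in marrow (log2 fold change -6.80 ± 1.19, adjusted p = 0.0233). Dlx5, a homeobox factor of osteoblast differentiation and outside the naming rule, read 0.514, 0 and 0.235 CPM in skin and 69.6, 51, 28.4 and 71.3 CPM in marrow (log2 fold change -7.75 ± 1.25, adjusted p = 0.0126). Bglap (osteocalcin) read 0, 0 and 0.157 CPM in skin and 10.8, 64.5, 18.7 and 8.85 CPM in marrow, 2 reads against 2341, a ratio of 507 with a 95% exact interval of 140.3 to 4192, with an adjusted p of 0.0439. Bglap shares most of its sequence with Bglap2, so reads could be split between these copies. In all 5 genes the groups stayed apart, with bone marrow 2 or 3 highest for Mmp13, Ibsp and Bglap and bone marrow 1 and 4 highest for Phex and Dlx5.

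Other known bone genes did not pass. Spp1 (osteopontin) read 2.79, 0 and 2.82 CPM in skin and 91.5, 200.4, 497 and 88 CPM in marrow at an adjusted p of 0.0869. Runx2, which starts osteoblast differentiation, read 68.9, 33.5 and 2.82 CPM in skin, all below the lowest marrow value of 80.4 CPM, at an adjusted p of 0.447. Col1a1, the main collagen chain of both bone and skin, read 6834, 3473 and 19616 CPM in skin and 2789.5, 3457, 8808 and 2924 CPM in marrow with overlapping groups. Summing bone marrow 1 and 4 left 3 calls in the list, Mmp13, Dlx5 and Ibsp. Leaving out 1 library left 3 calls without bone marrow 1, 3 or 4 or skin Ebf2- 1, 2 without bone marrow 2 or skin Ebf2- 2, and 1 without skin Ebf2- 3. The calls were lost for Ibsp without bone marrow 2 or 3 or skin Ebf2- 2 or 3, for Phex without bone marrow 1, 2 or 4 or skin Ebf2- 1, 2 or 3, for Dlx5 without skin Ebf2- 3 and for Bglap without any one of the 7 libraries.

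**Figure D2:**
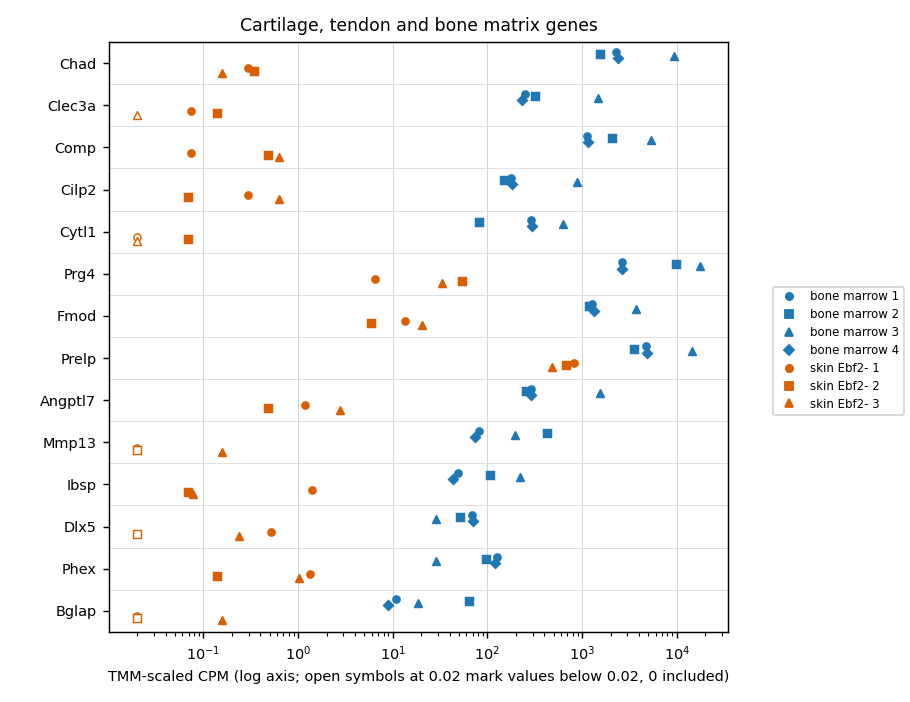
TMM-scaled CPM (horizontal log axis) of 14 genes of cartilage, tendon and bone matrix in the 4 bone marrow libraries (blue) and the 3 skin Ebf2- libraries (orange), with 1 symbol per library. Open symbols at 0.02 mark values under 0.02, and the groups do not overlap for any of these genes.

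Among genes of the blood stem cell niche, few differences passed. Of 22 tested, 1 fell, against 0.337% of all genes, and none rose, with a median of -1.15. The gene that fell was Foxc1, a transcription factor that maintains the marrow niche, at 0.807, 4.49 and 1.25 CPM in skin and 23.1, 74.8, 151 and 21.9 CPM in marrow (log2 fold change -4.95 ± 0.98, adjusted p = 0.0423). Cxcl12, the chemokine that holds blood stem cells in marrow, read 338, 214 and 1056 CPM in skin Ebf2- 1 to 3 and 1613, 1736, 258 and 1538 CPM in bone marrow 1 to 4, so that bone marrow 3 lay inside the skin range (adjusted p = 0.537). Lepr, the leptin receptor that marks marrow stroma, read 204, 44.8 and 193 CPM in skin and 403, 339, 325 and 367 CPM in marrow (adjusted p = 0.323). Kitl (stem cell factor) read 107, 50.9 and 118 CPM in skin and 56.1, 56.2, 9.82 and 49.3 CPM in marrow (adjusted p = 0.472). Ebf3 read 58, 32.7 and 0.705 CPM in skin and 191, 166, 76.4 and 185 CPM in marrow (adjusted p = 0.447). Summed marrow stroma markers ranged over 426 to 1446 CPM in skin libraries and over 891 to 2588 CPM in marrow libraries. Bone marrow 3, at 891 CPM, was the only marrow library within the skin range. Cxcl12 made up most of the sum in bone marrow 1, 2 and 4. Of the 8 markers, 7 had a negative log2 fold change (median -1.40). All skin libraries were below all marrow libraries for 4 of them, against 9.24% of all genes. The Foxc1 call was lost without bone marrow 1, 2 or 3 or skin Ebf2- 1, 2 or 3.

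Homeobox and other genes of body position differed in both directions. These transcription factors pattern the embryo along the body axis and in the limbs and remain on in adult fibroblasts. Of 24 tested Hox genes, 3 fell and 1 rose, against 0.337% and 0.393% of all genes. Their median log2 fold change of -0.44 turned positive with limma-voom (0.35) and with bone marrow 4 as the only marrow library (1.21). It was also 1.21 with a term for the earlier study, which makes the same comparison with bone marrow 4. Hoxc10, of the hindlimb and lower trunk, had no read in skin Ebf2- and 71.9, 56.9, 78.3 and 70.2 CPM in bone marrow 1 to 4, at least 944-fold lower against a floor of 3 counts over the skin group (adjusted p = 0.00118). Hoxa11, of the limb skeleton, had no read in skin and 45.9, 22.8, 32.2 and 50.2 CPM in marrow, at least 515-fold lower (adjusted p = 0.00593). Hoxa10 read 0.0734, 0 and 0.705 CPM in skin and 73.1, 38.2, 16 and 72.3 CPM in marrow (log2 fold change -7.57 ± 1.36, adjusted p = 0.0246) and missed the threshold with bone marrow 1 and 4 summed. The antisense transcript Hoxa11os also fell, with no read in skin and 23.7, 5.23, 5.99 and 22.3 CPM in marrow, but the library kit does not mark strand, so its reads and those of Hoxa11 cannot be told apart where they overlap. Hoxc8 went the other way, at 64.4, 95.7 and 21.7 CPM in skin and 3.04, 5.04, 7.67 and 3.25 CPM in marrow (log2 fold change 3.67 ± 0.73, adjusted p = 0.0423). Hoxc8 and Hoxc10 lie 18641 bp apart in the HoxC cluster on chromosome 15, and skin and marrow libraries separated in opposite directions at these neighbours. Hoxc8 missed the threshold once bone marrow 1 and 4 were summed, where 2 Hox genes passed, Hoxc10 and Hoxa11. Among fits that dropped 1 library, calls were lost for Hoxa10 without bone marrow 1, 2 or 4 or skin Ebf2- 1 or 2, for Hoxa11os without any one of the 7 libraries and for Hoxc8 without bone marrow 1, 2, 3 or 4 or skin Ebf2- 1 or 2.

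Of 50 tested members of the list of other positional transcription factors, 2 rose and 3 fell, against 0.393% and 0.337% of all genes. The list median was 0.36. Irx2, an Iroquois homeobox factor, read 33.2, 34.8 and 68.8 CPM in skin against 1 read in all of marrow, a ratio of 4231 with a 95% exact interval of 758 to 167195 (adjusted p = 0.00104), and passed in each of the 7 fits without 1 library. Its cluster neighbour Irx1 read 31.6, 30.5 and 8.38 CPM in skin and 0, 0, 0.539 and 0 CPM in marrow (adjusted p = 0.0698), and Irx5, of the other Iroquois cluster, read 36, 14.6 and 30.6 CPM in skin and 1.13, 2.05, 1.47 and 1.05 CPM in marrow (adjusted p = 0.135). Both were above marrow in all skin libraries without passing. Zic1, a zinc finger factor of dorsal body wall and neural tissue, read 19.7, 23.7 and 1.64 CPM in skin and 0.098, 0.0489, 0.0299 and 0 CPM in marrow (log2 fold change 8.20 ± 1.5, adjusted p = 0.0274). Skin Ebf2- 3 was the lowest skin library for both Zic1 and Hoxc8. Tbx4, the hindlimb T-box factor, had no read in skin and 20.1, 48.7, 57.1 and 23 CPM in marrow, at least 507-fold lower (adjusted p = 0.0107). Mab21l2, needed for eye and body wall formation, had no read in skin and 69.9, 11.8, 76.1 and 73.7 CPM in marrow, at least 788-fold lower (adjusted p = 0.00593), with bone marrow 2 the lowest of the marrow libraries. Meox2, a mesoderm homeobox factor outside the naming rule, read 39.6, 25.6 and 34 CPM in skin and 145, 190.2, 163 and 140.2 CPM in marrow (log2 fold change -2.27 ± 0.43, adjusted p = 0.0353). Tbx15, a trunk dermis factor, read 401, 300.3 and 174 CPM in skin and 173, 169.6, 219.9 and 178 CPM in marrow with overlapping groups. Tbx4, Irx2 and Mab21l2 passed with the marrow pair summed, Zic1 and Meox2 did not, and dropping 1 library ended calls for Zic1 without bone marrow 1, 2, 3 or 4 or skin Ebf2- 1 or 2, for Tbx4 without bone marrow 3 and for Meox2 without any one of the 7 libraries.

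**Figure D3:**
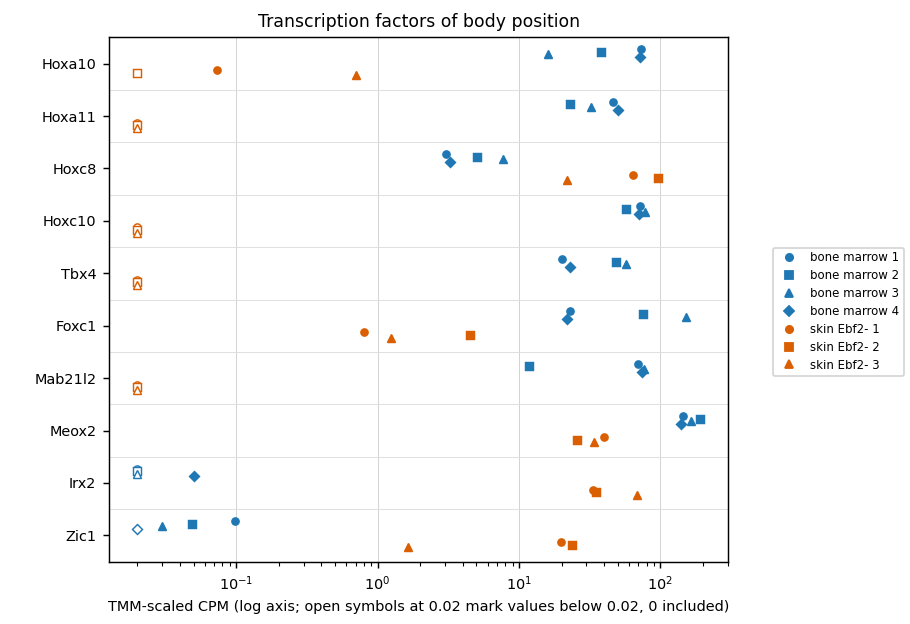
TMM-scaled CPM (horizontal log axis) of 10 transcription factors of body position in the 4 bone marrow libraries (blue) and 3 skin Ebf2- libraries (orange). Open symbols at 0.02 mark values under 0.02. Hoxc8, Irx2 and Zic1 are higher in every skin library and the other 7 are lower.

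The inducible heat shock genes Hspa1a and Hspa1b were the most abundant genes of the higher side beside the matrix gene Mfap4. Both encode the same Hsp70 chaperone, which refolds damaged proteins and is switched on by heat shock factor 1. Hspa1a read 2407, 1686 and 2702 CPM in skin Ebf2- 1 to 3 and 116, 219, 174 and 113 CPM in bone marrow 1 to 4 (log2 fold change 3.86 ± 0.47, adjusted p = 0.00259). Hspa1b read 1738, 1286 and 2871 CPM in skin and 97.2, 176, 116 and 92.1 CPM in marrow (log2 fold change 4.03 ± 0.52, adjusted p = 0.0037). For both copies, the lowest skin library stood several times above the highest marrow library, bone marrow 2. Hspa1l, the neighbouring family member known from testis and outside the naming rule, read 59.7, 62.1 and 169 CPM in skin and 3.87, 5.08, 3.86 and 3.45 CPM in marrow (log2 fold change 4.57 ± 0.62, adjusted p = 0.00533). All 3 passed with bone marrow 1 and 4 summed and in each of the 7 fits without 1 library. Reads of Hspa1a and Hspa1b, near-identical copies, can be assigned to either, so their separate values are uncertain.

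The 3 genes lie together on chromosome 17, where Hspa1a and Hspa1l start 547 bp apart and face away from each other, and Hspa1b starts 12918 bp from Hspa1a. Their upstream sequences are shown because these members moved together and because a heat shock element is the known switch of Hspa1a and Hspa1b. Each is the 250 bases before the start in the RefSeq table of build GRCm38.p6, with capitals on a match to GAANNTTC or TTCNNGAA, the inverted repeats of the element, each of which reads the same on both strands. Hspa1a lies at chr17:34972157-34972406 on the minus strand, Hspa1b at chr17:34959239-34959488 on the minus strand, and Hspa1l at chr17:34972453-34972702 on the plus strand.
Hspa1a: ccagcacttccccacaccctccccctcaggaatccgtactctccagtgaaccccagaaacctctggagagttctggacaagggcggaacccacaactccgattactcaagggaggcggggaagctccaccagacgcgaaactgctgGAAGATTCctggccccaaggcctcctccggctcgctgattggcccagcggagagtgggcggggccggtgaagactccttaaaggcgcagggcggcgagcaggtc
Hspa1b: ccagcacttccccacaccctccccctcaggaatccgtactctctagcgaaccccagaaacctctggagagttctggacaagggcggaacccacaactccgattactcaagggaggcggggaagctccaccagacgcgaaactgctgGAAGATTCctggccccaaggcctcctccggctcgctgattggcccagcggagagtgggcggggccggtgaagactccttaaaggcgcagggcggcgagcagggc
Hspa1l: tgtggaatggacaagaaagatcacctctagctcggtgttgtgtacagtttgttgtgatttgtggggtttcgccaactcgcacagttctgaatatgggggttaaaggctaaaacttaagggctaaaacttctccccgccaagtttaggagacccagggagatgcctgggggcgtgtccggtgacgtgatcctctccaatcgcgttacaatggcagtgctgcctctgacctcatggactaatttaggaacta
The Hspa1a and Hspa1b windows differ at 3 of 250 bases (98.8% identity) and each holds 1 match, whose first base is 104 bases before the start. The Hspa1l window holds none of these letters. Of 32851 windows of the same length in the table, 12.8% hold a match.

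Other heat shock genes did not pass. Of 18 tested, Hspa1a and Hspa1b rose, against 0.393% of all genes, and none fell, with a list median of 0.26. Hspa8, the constitutive family member, read 1848, 1657 and 1200.2 CPM in skin and 1520.4, 1376, 979 and 1440.2 CPM in marrow (adjusted p = 0.875). The co-chaperone Dnajb1 read 254, 355 and 112 CPM in skin and 140.3, 149, 214 and 129.9 CPM in marrow, and the large chaperone Hsph1 read 263, 233 and 80 CPM in skin and 109, 94.1, 75.1 and 104 CPM in marrow, with overlapping groups for both. Of 30 immediate early genes, which respond quickly to tissue handling, 0 passed in edgeR and the median was -0.48. An unadjusted p under 0.05 was found for 9 of them, against 1772 of all 14520 genes. DESeq2 called 5, against 820 of 14995 genes. All skin libraries were below all marrow libraries for 8 of the 30 and above them for 1, against 9.24% and 9.46% of all genes.

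Several enzymes that modify steroids and foreign compounds were higher in skin Ebf2-. Of 58 tested members of the list of steroid, drug and retinoid genes, 5 rose and 1 fell, against 0.393% and 0.337% of all genes. Rarres2, 1 of the 5, is not an enzyme. The list median of 0.28 was close to that of all genes. Akr1c14 and Akr1c18, aldo-keto reductases that inactivate steroid hormones, lie 42055 bp apart on chromosome 13. Akr1c14 read 108, 331 and 358 CPM in skin and 3.87, 8.12, 3.62 and 4.5 CPM in marrow (log2 fold change 5.72 ± 0.66, adjusted p = 0.00177). Akr1c18 read 28.5, 42.1 and 43.5 CPM in skin with no read in marrow, at least 1195-fold higher (adjusted p = 0.00865). Ugt1a6a, which attaches glucuronic acid to phenols, read 62.8, 25.1 and 54 CPM in skin and 0.294, 0.342, 0.808 and 0.30 CPM in marrow (log2 fold change 6.72 ± 0.78, adjusted p = 0.00177). Its neighbour Ugt1a6b, outside the naming rule, shares exons with it, so the split of reads between them is uncertain, and read 44.9, 15.1 and 36.6 CPM in skin and 0.294, 0.147, 0.24 and 0.25 CPM in marrow. Cyp4b1, a cytochrome P450, read 194, 122 and 542 CPM in skin and 0.441, 4.84, 0.0299 and 0.65 CPM in marrow (log2 fold change 7.59 ± 1.28, adjusted p = 0.0175). Rarres2 (chemerin, a secreted attractant of immune cells whose gene responds to retinoids) read 478, 469 and 490.3 CPM in skin and 102, 41.8, 23.4 and 99.6 CPM in marrow (log2 fold change 2.85 ± 0.52, adjusted p = 0.0279). Dhrs3, which reduces retinal, was the member that fell, at 31.8, 18.3 and 20.4 CPM in skin and 190.0, 77.6, 94.1 and 195 CPM in marrow (log2 fold change -2.56 ± 0.53, adjusted p = 0.048). Summing bone marrow 1 and 4 left 3 of the list higher, Akr1c14, Akr1c18 and Ugt1a6a, and none lower. Those 3 also passed in each of the 7 fits without 1 library, where the other calls were lost for Cyp4b1 without bone marrow 1 or 4, for Rarres2 without any one of the 7 libraries and for Dhrs3 without any one of the 7 libraries.

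Dermal matrix, receptor and metabolic genes made up further higher calls. Mfap4, a microfibril protein of elastic fibres, read 2929, 1631 and 2431 CPM in skin and 276, 183, 45.4 and 280.2 CPM in marrow (log2 fold change 3.57 ± 0.70, adjusted p = 0.0397) and missed the threshold with bone marrow 1 and 4 summed. Of 25 tested elastic fibre genes, Mfap4 alone passed, against 0.393% of all genes on the higher side. Eln (elastin) read 431, 480.2 and 1124 CPM in skin and 138, 158, 28.4 and 143 CPM in marrow at an adjusted p of 0.0799. Apcdd1, a Wnt inhibitor of the upper dermis and hair follicle, read 217, 151 and 314 CPM in skin and 7.0, 2.35, 15.9 and 8.8 CPM in marrow (log2 fold change 4.74 ± 0.67, adjusted p = 0.00593). Of 57 tested Wnt genes, Apcdd1 alone passed, against the same 0.393%. Plac8, a small cysteine-rich protein found in fascia fibroblasts, read 33.8, 34.5 and 48 CPM in skin and 0.294, 0.978, 1.77 and 0.35 CPM in marrow (log2 fold change 5.49 ± 0.80, adjusted p = 0.00653). Rxfp1, the relaxin receptor, read 16.3, 76.6 and 32.3 CPM in skin against 2 reads in marrow, a ratio of 2010.4 with a 95% exact interval of 556 to 16614 (adjusted p = 0.00593). Cd36, the fatty acid and lipoprotein receptor, read 36.7, 51.1 and 20.7 CPM in skin and 0.882, 1.86, 1.32 and 0.050 CPM in marrow (log2 fold change 5.12 ± 0.90, adjusted p = 0.0233). Ucp2, a mitochondrial carrier outside the naming rule, read 140.0, 92.4 and 126 CPM in skin and 7.49, 6.75, 6.68 and 8.65 CPM in marrow (log2 fold change 4.01 ± 0.51, adjusted p = 0.00363). Apcdd1, Plac8, Rxfp1 and Ucp2 passed in each of the 7 fits without 1 library, and calls were lost there for Mfap4 without any one of the 7 libraries and for Cd36 without bone marrow 1 or 3 or skin Ebf2- 1 or 2.

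Signalling genes passed singly. Bmp8a, a bone morphogenetic protein, read 9.54, 14.8 and 15.5 CPM in skin and 0, 0.0489, 0.0299 and 0.10 CPM in marrow (log2 fold change 8.03 ± 1.46, adjusted p = 0.0271). Fgfr4, a fibroblast growth factor receptor, read 29.3, 10.9 and 96.5 CPM in skin against 2 reads in marrow, a ratio of 2065 with a 95% exact interval of 571 to 17061 (adjusted p = 0.0384). Its ligand family member Fgf1 was on the lower side at 143, 18.8, 11.7 and 139 CPM in marrow and 1 read in skin, a ratio of 2805 with a 95% exact interval of 503 to 110797 (adjusted p = 0.0143). Ptpn5, a tyrosine phosphatase best known from brain, read 4.18, 35.7 and 9.24 CPM in skin against 1 read in marrow, a ratio of 1596 with a 95% exact interval of 286 to 63142 (adjusted p = 0.00638). Kcnj8, a potassium channel of mural cells, read 57.3, 17.4 and 144 CPM in skin and 3.04, 1.03, 5.96 and 1.75 CPM in marrow (log2 fold change 4.63 ± 0.85, adjusted p = 0.0278). Of 7 tested mural markers, Kcnj8 alone passed, against 0.393% of all genes on the higher side. Hcn4, the pacemaker channel, read 7.49, 22 and 4.7 CPM in skin with no read in marrow, at least 358-fold higher (adjusted p = 0.0246). Gas1, a cell surface co-receptor for hedgehog ligands, fell from 845, 734, 673 and 816 CPM in marrow to 75.2, 77.2 and 229 CPM in skin (log2 fold change -2.59 ± 0.52, adjusted p = 0.0428). Bmp8a, Fgfr4, Kcnj8, Hcn4 and Gas1 missed the threshold when bone marrow 1 and 4 were summed. Ptpn5 passed in each fit without 1 library, and the others were lost for Bmp8a without any one of the 7 libraries, for Fgfr4 without any one of the 7 libraries, for Fgf1 without skin Ebf2- 1, 2 or 3, for Kcnj8 without bone marrow 1, 2 or 4 or skin Ebf2- 1 or 3, for Hcn4 without bone marrow 1, 2, 3 or 4 or skin Ebf2- 1 or 2 and for Gas1 without bone marrow 1, 2, 3 or 4 or skin Ebf2- 1 or 2.

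Immune genes of the higher side divided into those seen in all skin libraries and those carried by skin Ebf2- 2. Ifi202b, an interferon-induced DNA sensor known to be barely expressed in C57BL/6 mice, read 34.1, 26.3 and 73.4 CPM in skin against 2 reads in marrow, a ratio of 2055 with a 95% exact interval of 568 to 16985 (adjusted p = 0.000645). Strain was not separated from tissue, so this level cannot be assigned to one of them. Of 36 tested interferon-induced genes, 2 rose, against 0.393% of all genes, and none fell (median 0.85). Beside Ifi202b the other was Gbp2, a guanylate-binding protein, at 108, 89.9 and 147 CPM in skin and 27.8, 28.7, 20.8 and 26.9 CPM in marrow (log2 fold change 2.14 ± 0.42, adjusted p = 0.0417). Of 24 antigen presentation genes, 2 rose, against 0.393% of all genes, and none fell. Of these 24, 23 had a positive log2 fold change, as did 7586 of all 14520 genes, and the median was 1.84. Without skin Ebf2- 3 the median was 1.14, and without both skin libraries numbered 3 it was 1.11. Psmb8, an immunoproteasome subunit, read 50.4, 55.3 and 114 CPM in skin and 8.33, 11.7, 13.3 and 9.8 CPM in marrow (log2 fold change 2.76 ± 0.56, adjusted p = 0.0437). The class I gene H2-D1 read 363, 295 and 2695 CPM in skin and 210.2, 186, 122 and 209.7 CPM in marrow (adjusted p = 0.207), with skin Ebf2- 3 far above the rest. Once bone marrow 1 and 4 were summed, none of the antigen presentation genes passed and Ifi202b was the 1 interferon-induced gene that did. Ifi202b also passed in each fit without 1 library, and the others were lost for Gbp2 without any one of the 7 libraries and for Psmb8 without any one of the 7 libraries.

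Cd74, the chaperone of class II molecules, was the other antigen presentation gene, at 5.28, 267 and 12.2 CPM in skin Ebf2- 1 to 3 and 0.196, 0.244, 0.12 and 0.30 CPM in marrow (log2 fold change 8.76 ± 1.68, adjusted p = 0.0355). Il2ra, the interleukin-2 receptor of activated T cells, read 5.36, 198 and 0.392 CPM in skin and 0, 0.0978, 0.15 and 0 CPM in marrow (log2 fold change 9.82 ± 2.02, adjusted p = 0.0475). Both peaked in skin Ebf2- 2, the library with Cd3e (a T cell receptor subunit) at 709 CPM and Ptprc at 62.0 CPM. Summed myeloid markers there were 343 CPM, against 15 and 45.5 CPM in skin Ebf2- 1 and 3 and 5.93 to 45.0 CPM in marrow. Cd74 and Ptprc are themselves on the myeloid list and made up most of the sum in skin Ebf2- 2. Without skin Ebf2- 2, Cd74 stood at a log2 fold change of 5.29 and Il2ra at 5.34, and neither passed. Across the 7 fits without 1 library, calls were lost for Cd74 without bone marrow 1, 2, 3 or 4 or skin Ebf2- 2, for Il2ra without bone marrow 1, 2, 3 or 4 or skin Ebf2- 1 or 2, for Il4ra without any one of the 7 libraries, for Il1r2 without bone marrow 2 or 4 and for Il31ra without any one of the 7 libraries. Cytokine receptors were more even over the skin libraries. Il4ra, the interleukin-4 receptor, read 189, 399 and 473 CPM in skin and 59.7, 61.9, 14.9 and 64.2 CPM in marrow (log2 fold change 2.82 ± 0.56, adjusted p = 0.0428). Il1r2, the decoy receptor of interleukin-1, and Il31ra, the receptor of the itch cytokine interleukin-31, were both outside the naming rule. Il1r2 read 116, 132 and 495 CPM in skin and 0, 0.44, 2.87 and 0.25 CPM in marrow (log2 fold change 8.07 ± 1.35, adjusted p = 0.0157). Il31ra read 14.8, 32.8 and 28.1 CPM in skin and 1.47, 0.391, 1.95 and 2.2 CPM in marrow (log2 fold change 4.06 ± 0.80, adjusted p = 0.0397). Sectm1a, a secreted and membrane protein that acts on T cells, read 122, 59 and 379.8 CPM in skin against 2 reads in marrow, a ratio of 8502 with a 95% exact interval of 2353 to 70216 (adjusted p = 0.0037).

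**Figure D4:**
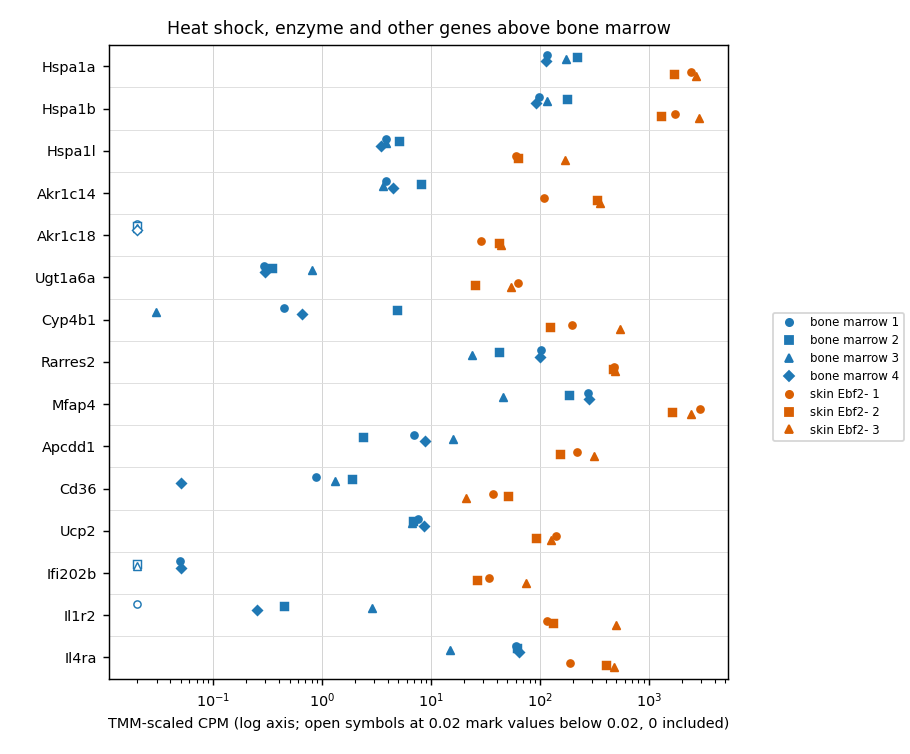
TMM-scaled CPM (horizontal log axis) of 15 genes that were higher in skin Ebf2- (orange, 3 libraries) than in bone marrow (blue, 4 libraries). Open symbols at 0.02 mark values under 0.02. The groups do not overlap for any of them.

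Keratins and junction proteins of the epidermis were also higher in skin Ebf2-. Of 37 tested epithelial genes, 9 rose and none fell, against 0.393% of all genes on the higher side. The median log2 fold change was 8.02 (7.32 with genes absent from a group set at their bound). All skin libraries were above all marrow libraries for 28 of them, against 9.46% of all genes. Krt5, a keratin of basal keratinocytes, read 221, 57.6 and 138 CPM in skin against 1 read in marrow, a ratio of 12929.8 with a 95% exact interval of 2319.7 to 510790.0 (adjusted p = 0.00938). Krt15, of hair follicle stem cells, read 119.9, 11.4 and 75.6 CPM, and Krt1 and Krt10, of differentiating epidermis, read 67.5, 17.4 and 28.3 and 160.1, 64.6 and 66.9 CPM in skin. In bone marrow, Krt15 and Krt1 had 1 read each and Krt10 stayed at or under 5.51 CPM. The desmosome cadherins Dsg1a and Dsc3 read 41.8, 22.9 and 29.1 and 65.3, 12.3 and 24 CPM in skin, with no read and 1 read in marrow. Col17a1, a hemidesmosome collagen, read 84.4, 19.1 and 29.4 CPM in skin and 0.049, 0.147, 0.269 and 0.10 CPM in marrow (log2 fold change 8.18 ± 1.54, adjusted p = 0.0331). Trp63 and Epcam, outside the naming rule, completed the 9. The lowest skin library was skin Ebf2- 2 for Krt5, Krt15, Krt1, Krt10, Dsg1a, Dsc3 and Col17a1.

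Summed keratinocyte markers were 789, 226 and 548 CPM in skin Ebf2- 1 to 3 and 10.6 to 13.98 CPM in bone marrow, with all 9 markers measured, against 29618 to 102731 CPM for summed dermal fibroblast markers of the same skin libraries. Their part in these calls was not tested. Summing bone marrow 1 and 4 left 1 epithelial call, Krt5, in the fit with skin Ebf2+. The fit of the 7 libraries without skin Ebf2+ called 18, and 15 with bone marrow 1 and 4 summed. Without 1 library the number was 0 without bone marrow 1 or 3, 1 without bone marrow 2 or 4 or without skin Ebf2- 1 or 2, and 2 without skin Ebf2- 3.

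**Figure D5:**
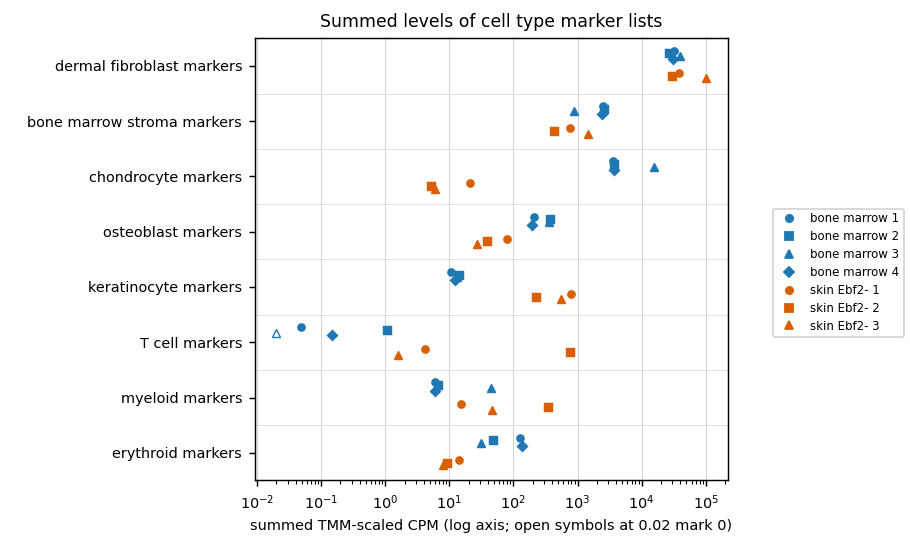
Summed TMM-scaled CPM (horizontal log axis) of 8 cell type marker lists in the 4 bone marrow libraries (blue) and 3 skin Ebf2- libraries (orange). Chondrocyte markers are high in every marrow library, mostly through Chad and Comp, and keratinocyte markers in every skin library. Skin Ebf2- 2 stands apart for T cell and myeloid markers, and Cd74 and Ptprc make up most of its myeloid sum.

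Most collagen genes did not pass. Of 34 tested, Col17a1 rose and Col8a1 fell, against 0.393% and 0.337% of all genes, and the median was -0.23. Col8a1, a short-chain network collagen, read 20.5, 25.5 and 19.2 CPM in skin and 229, 326, 447 and 218 CPM in marrow (log2 fold change -3.81 ± 0.52, adjusted p = 0.0057) and passed in 20 of 22 alternatives. Col3a1, a fibrillar collagen abundant in dermis, read 10609, 6886 and 55253 CPM in skin and 5292, 5796, 7651 and 5044 CPM in marrow with overlapping groups (adjusted p = 0.257), and skin Ebf2- 3 was the highest for Col3a1 and Col1a1.

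The remaining lower genes included regulators of the cell surface and secretion. Cemip, which breaks down hyaluronan, had no read in skin and 10.9, 51.3, 45.4 and 8.45 CPM in marrow, at least 395-fold lower (adjusted p = 0.0319). Trpm6, a magnesium channel, had no read in skin and 23.3, 4.01, 3.08 and 20.1 CPM in marrow, at least 172-fold lower (adjusted p = 0.0383). The following were outside the naming rule. Myoc (myocilin, a secreted matrix-associated protein) read 179, 185 and 57.1 CPM in skin and 1718, 2114, 1509 and 1699 CPM in marrow (log2 fold change -3.65 ± 0.59, adjusted p = 0.0128). Osbpl3, an oxysterol-binding protein, read 1.83, 4.63 and 3.68 CPM in skin and 107, 70, 61.1 and 107 CPM in marrow (log2 fold change -4.67 ± 0.65, adjusted p = 0.00589). Serpine2, an inhibitor of thrombin and plasminogen activators, read 15.2, 13.8 and 61.9 CPM in skin and 623, 492, 512 and 631 CPM in marrow (log2 fold change -4.22 ± 0.64, adjusted p = 0.00866). Ptprd, a receptor tyrosine phosphatase, read 28, 21.6 and 15.4 CPM in skin and 286, 249, 136 and 264 CPM in marrow (log2 fold change -3.43 ± 0.49, adjusted p = 0.00593), and the intermediate filament protein Synm read 9.91, 8.92 and 8.46 CPM in skin and 128, 124, 234 and 124 CPM in marrow (log2 fold change -4.07 ± 0.60, adjusted p = 0.00663). Skin and marrow did not overlap for any of these genes. Myoc, Osbpl3, Serpine2, Ptprd, Synm and Cemip passed with the marrow pair summed, and Trpm6 did not. Osbpl3 passed in each fit without 1 library, and the others were lost for Cemip without bone marrow 1, 2 or 3 or skin Ebf2- 1, 2 or 3, for Trpm6 without bone marrow 1, 2 or 4 or skin Ebf2- 1, 2 or 3, for Myoc without skin Ebf2- 1 or 2, for Serpine2 without skin Ebf2- 1 or 2, for Ptprd without skin Ebf2- 2 and for Synm without skin Ebf2- 1 or 2.

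Several broad programmes gave no call in edgeR. None of 69 respiratory chain genes passed (3 at an unadjusted p under 0.05, 0 in DESeq2), and none of 44 cell cycle genes (5 unadjusted, 2 in DESeq2). The same held for 59 axon guidance genes (12 unadjusted, 2 in DESeq2), 22 chemokines (6 and 3), 18 cytokines (1 and 0) and 18 Notch genes (4 and 1). Among 18 insulin-like growth factor genes 6 had an unadjusted p under 0.05 and DESeq2 called 3, and among 19 basement membrane genes these numbers were 3 and 2. Median log2 fold changes of these lists ran from -0.48 for the insulin-like growth factor genes to 1.15 for the cell cycle genes. Over all 14520 genes tested, 1772 had an unadjusted p under 0.05, and DESeq2 called 820 of 14995 genes.

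The skin Ebf2+ libraries gave a second view of the 106 genes within the same skin. Without a block, none of them passed in edgeR between skin Ebf2- and skin Ebf2+, where 0 of 14520 genes (0.0%) passed and 575 had an unadjusted p under 0.05. The skin libraries numbered 3 deviated together, and once the library number was a block in the fit 4 genes (0.0275%) passed, none of the 106 among them. DESeq2 without a block called 131 genes (0.874%), 9 of the 106 among them. Skin Ebf2+ 3 and skin Ebf2- 3 also shared low Rn45s, at 0.593% and 0.170% of counts, and low Xist, at 132 and 48.8 CPM. For 105 of the 106 genes the mean of skin Ebf2+ lay on the same side of the bone marrow mean as that of skin Ebf2-, the exception being Pcp4l1. Both distances share the marrow libraries, so they are given only side by side. Pcp4l1, outside the naming rule, had no read in skin Ebf2-, 1.13, 3.08, 2.49 and 1.35 CPM in marrow and 32.4, 69.1 and 11.9 CPM in skin Ebf2+ 1 to 3. Chad read 1.05, 0.786 and 0.156 CPM in skin Ebf2+, Irx2 14.8, 11.3 and 38 CPM, Hspa1a 1617, 947 and 1588 CPM and Akr1c14 129.6, 50 and 195 CPM. Trpm6, without a read in skin Ebf2-, stood at 3.38, 3.75 and 4.14 CPM in skin Ebf2+. Epithelial genes were uneven there: Krt5 read 18.7, 0.175 and 224 CPM, with the lowest value in skin Ebf2+ 2.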

How the data were processed

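Gene counts are the authors' deposited raw counts per gene from SMART-Seq v4 libraries (a kit that does not mark strand) finished with Nextera XT and read as 75 bp single ends, per the labels' protocols. Which of the 2 named sequencers read each library is not given here. Reads were aligned to GRCm38 with STAR 2.6.1d and counted with featureCounts, per the submitters' processing notes. The authors' deposited comparison, with log2 ratios and adjusted p-values made with DESeq2 per the submitters' processing notes, served only to count shared calls. The 10 deposited columns of normalized counts were not used.

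All 10 libraries were fitted together in edgeR 4.0.16 (R 4.3.3) with TMM scaling, its expression filter and quasi-likelihood F tests with Benjamini-Hochberg adjustment over 14520 genes, and an adjusted p under 0.05 was called. Every adjusted p printed without another tool's name is from this fit. Standard errors are the log2 fold change divided by the square root of F. DESeq2 1.42.0 and limma 3.58.1 were alternatives. The code was checked on simulated counts. In deviations from group means, same-numbered skin Ebf2- and skin Ebf2+ libraries correlated at 0.237, 0.263 and 0.681. Skin Ebf2- 1 with skin Ebf2+ 2 gave 0.21, and skin Ebf2- 2 with skin Ebf2+ 1 gave 0.194, close to 0.237 and 0.263. Only the pair at 0.681 stood apart, so the correlations cannot tell how the other skin libraries pair. The skin replicate block took the numbers as pairs, which is an assumption for those libraries and is not stated by the labels. Replicate numbers are not tied across groups by the labels, so p-values measure the spread between these libraries. A spreadsheet had turned 18 symbols into dates, which were restored, and 251 genes without a symbol stayed in the fit.

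Named genes were the sort markers, the 15 largest changes each way at 10 CPM or more without overlap, up to 3 called members of each list each way (or its most abundant member), and the 5 most abundant and 5 lowest adjusted p each way. Groups, genes and lists were chosen with earlier results of these data known. Some called genes are not reported here.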

Additional observations from a re-analysis of the deposited data

Results flagged for a closer look

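Named genes with a mean of at least 10 CPM in bone marrow numbered 54. In 11 of them, 1 of the 4 marrow libraries stood apart from the rest. The check is set so that chance alone gives about 1 in 20, but only for 4 independent libraries. Bone marrow 1 and 4 are nearly alike, which narrows the range of the others. The 1 in 20 therefore does not apply here, and whether 11 of 54 exceeds chance cannot be decided. Bone marrow 3 was the highest for 7 matrix genes. Chad read 9324 CPM there against 1559 to 2429 in the others, Clec3a 1468 against 233 to 317, Cilp2 875 against 150 to 183, and Prelp 14364 against 3530 to 4897. Fmod read 3736 CPM there against 1176 to 1323, Angptl7 1553 against 258 to 291, and Vcan 2277 against 913 to 976. Bone marrow 3 was the lowest for Il4ra, at 14.9 CPM against 59.7 to 64.2, for Cxcl12, at 258 against 1538 to 1736, and for Gnas, at 1365 against 1565 to 1577. Bone marrow 2 was the lowest for Mab21l2, at 11.8 CPM against 69.9 to 76.1. In skin Ebf2- groups of 3 no such check was made.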

How the results depend on the processing

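The count of genes called was 106, 57 higher and 49 lower. It was 820 (421 and 399) with DESeq2, 293 (182 and 111) with limma-voom, 262 (148 and 114) in the fit of 7 libraries, and 47 (20 and 27) with bone marrow 1 and 4 summed. It fell to 13 (2 and 11) with both left out, 9 (0 and 9) with a term for the earlier study, and 2 (0 and 2) with bone marrow 4 alone. Also chosen after seeing the data were the fit of 7 libraries with the pair summed, at 147 (77 and 70), and leaving out both skin libraries numbered 3, at 81 (42 and 39). Leaving out 1 library gave 34 to 58 calls, 18 to 31 higher and 13 to 28 lower. Same-numbered skin Ebf2- and bone marrow libraries correlated at 0.042, -0.038 and 0.063 in their deviations, so the numbers do not pair these groups, and a replicate block gave 69 calls (33 and 36). Between skin Ebf2- and skin Ebf2+, 0 calls became 4 with a skin replicate block and 131 with DESeq2, both chosen after seeing the data. Scaling and filter changes gave 92 to 136 calls. Without scaling the median of all genes moved to 0.225. The median of the Hox genes, -0.44, reversed to 0.35 with limma-voom, 1.21 with bone marrow 4 alone and 1.21 with the term for the earlier study. That term covers bone marrow 1 to 3, so both fits set skin Ebf2- against bone marrow 4 and are not separate results. Bone marrow 4 is nearly alike to bone marrow 1, which carries the label of the earlier study, so the term may not separate the studies. The causes were not tested. All 106 genes kept their sign wherever tested. At 3 counts per library, levels under 0.0761 to 0.258 CPM could not be read.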
